A study of Mus musculus with 77 samples.

Results

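The 10 genes described here are endothelial and blood-brain barrier genes: Cldn5, Pecam1, Cdh5, Flt1, Kdr, Tek, Egfl7, Esam, Tjp1 and Ocln. They were taken by mouse symbol, without a rule on measured values, but were chosen with earlier results of these data known. All 10 were among the 16587 genes measured in AGO2-bound mRNA from the BNST (bed nucleus of the stria terminalis), a forebrain region involved in anxiety. AGO2 is the protein of the RNA-induced silencing complex that carries miRNAs, and AGO2 RNA immunoprecipitation sequencing (AGO2 RIP-seq) reads the mRNAs held by that complex. The values are therefore levels of AGO2-bound mRNA and not of all mRNA in the tissue.

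The BNST came from male B6 mice, given as C57BL/6Crl in the labels and as C57BL/6NCrl in the study's methods, 8 weeks of age at dissection, and tissue was taken 6 to 8 days after the end of chronic social defeat stress (CSDS). In CSDS a mouse is attacked each day by an unfamiliar aggressor and then kept in sensory contact with it. Stressed mice whose social interaction ratio lay more than 1 SD below the control mean were classed as susceptible and the others as resilient, and the mice sequenced were taken from the extremes of that ratio, or near its mean for controls. Control mice lived behind a divider next to a new neighbour each day and were never defeated, and all mice went through behavioural tests before dissection. Each library was made from a pool of 3 BNST, with 5 control, 5 resilient and 4 susceptible pools for mRNA. The labels do not say which animals entered which pool, so p-values measure the spread between these pools. A pooled tissue mixes all cell types, and fewer vessel cells, less mRNA per cell and less binding to AGO2 cannot be told apart.

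Brain endothelial cells form the wall of the capillaries, and their tight junctions seal the space between neighbouring cells. Claudin-5 (Cldn5) and occludin (Ocln) span the membrane in these junctions, and ZO-1 (Tjp1) is the scaffold that ties them to actin. ESAM (Esam), VE-cadherin (Cdh5) and PECAM-1 (Pecam1) hold endothelial cells to each other. VEGFR1 (Flt1) and VEGFR2 (Kdr) are receptors of vascular endothelial growth factor, where VEGFR1 acts largely as a decoy, Tie2 (Tek) is the receptor of the angiopoietins, and EGFL7 (Egfl7) is a protein that endothelial cells secrete into the vessel wall. Ocln and Tjp1 are not endothelial alone. Ocln is also made by epithelia such as the choroid plexus, and Tjp1 is found in many cell types of the brain.

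Reads on the measured genes ranged from 3701281 to 10659882 per pool. Resilient pool 3 was the deepest and resilient pool 5 the shallowest, and the latter had no read for 240 genes, against 4 to 90 in the other pools. The median correlation of a pool with the others lay between 0.958 and 0.976. Of the GABAergic genes that mark BNST neurons, Gad1 was at 8.32 ± 0.06 and Gad2 at 8.20 ± 0.13 log2 CPM in the control pools (SD, n = 5). Slc32a1, also a GABAergic gene, was lower there, at 5.87 ± 0.29 log2 CPM. Every one of the 10 endothelial and barrier genes had reads in every pool, from a low of 7 reads for Ocln in resilient pool 5 to a high of 3056 for Tjp1 in resilient pool 3.

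In log2 CPM, a gene's reads scaled to the depth of its pool, and taken per kilobase of exon so that long and short genes can be set side by side, Tjp1 stood first in the control pools at 5.16 ± 0.05 (SD, n = 5). Flt1 at 2.65 ± 0.21, Cldn5 at 2.63 ± 0.19 and Egfl7 at 2.60 ± 0.23 followed, and their ranges over the control pools overlapped. Esam came next at 2.15 ± 0.20, then Tek at 1.68 ± 0.17, Kdr at 1.18 ± 0.29, Cdh5 at 1.03 ± 0.30, Ocln at 1.00 ± 0.31 and Pecam1 at 0.54 ± 0.07. The ranges did not overlap between Tjp1 and Flt1, Esam and Tek, Tek and Kdr, or Ocln and Pecam1, while the other neighbours in this order did overlap. The median over all 16535 genes with a known exon length was 2.58, so that 6 of the 10 genes lay below the typical gene and only Tjp1 lay well above it.

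Tjp1 thus set most of the summed signal. Between 56.4% and 60.9% of the summed CPM of the 10 genes came from Tjp1 in the control pools, against 59.6% to 66.9% in the resilient and 60.3% to 66.5% in the susceptible pools. Without Tjp1 the sum was 179 to 210 CPM in the control pools, 165 to 206 CPM in the resilient pools and 153 to 190 CPM in the susceptible pools. The 3 ranges overlapped.

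The endothelial and barrier genes showed no shared shift after CSDS. In the limma fit over all genes a call of change needed p below 0.05 together with a difference of 1.2-fold or more. Between resilient pools and controls 1 of the 10 was called, where 17.7% of all genes were, with 8.65% raised and 9.04% lowered. Between susceptible pools and controls 1 of the 10 was called as well, where 18.9% of all genes were, with 9.65% raised and 9.28% lowered. The stressed groups differed from each other in 1 of the 10 and in 2.14% of all genes. With 10 genes, counts of 1 cannot be set apart from these background shares. All 3 calls were of lower levels, Ocln in resilient pools against controls and Flt1 in susceptible pools against either group. None of the 10 had a limma adjusted p under 0.05 in any comparison, where 1.95%, 4.02% and 0% of all genes did (for the stressed groups 0 genes, with 401 at an unadjusted p under 0.05). At an unadjusted p under 0.05 were 2, 1 and 1 of the 10 genes. Relative to controls the 10 had a median log2 fold change of -0.02 in resilient and -0.09 in susceptible pools, and of -0.02 between the stressed groups, and over all genes it was -0.02, -0.01 and 0.01. The pool values of all 10 genes are plotted first, and then their differences between groups.

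**Figure D1:**
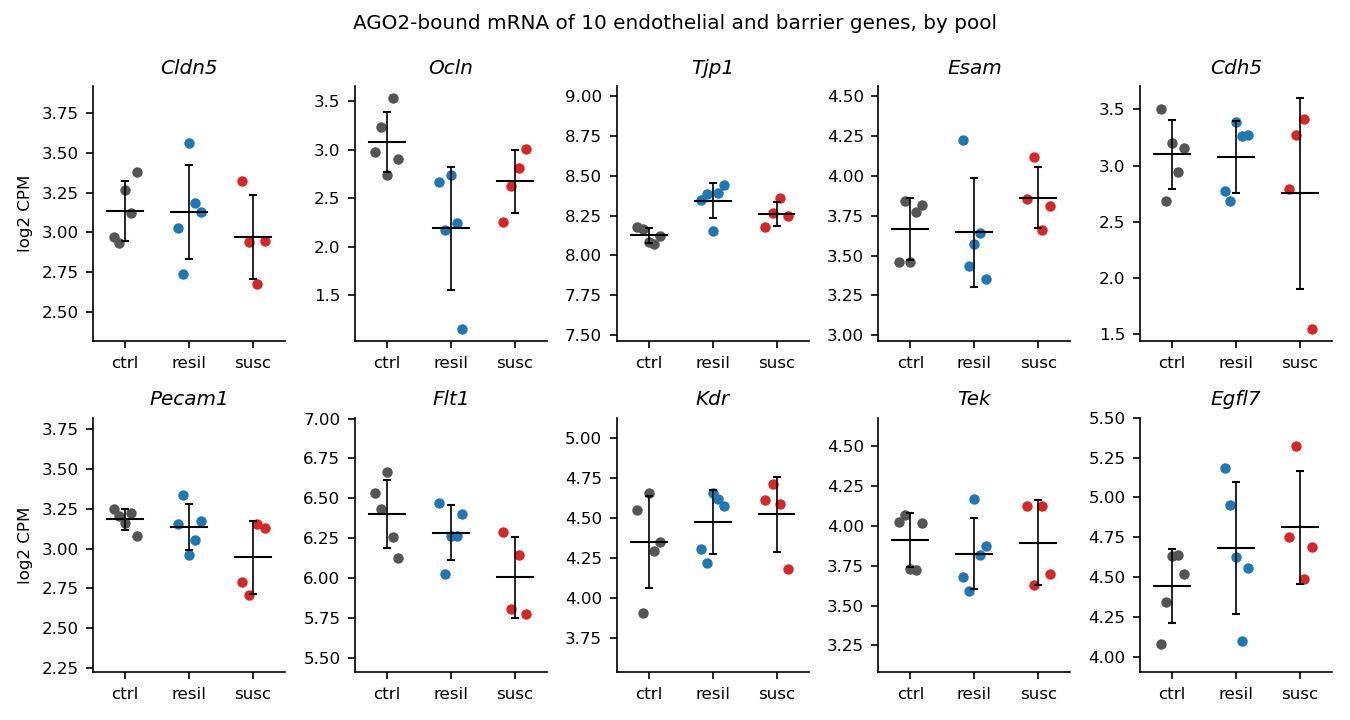
Level of AGO2-bound mRNA (log2 CPM, y axis) of the 10 genes in control, resilient and susceptible pools. Each point is 1 pool, the long bar is the group mean and the error bar 1 SD, and each panel has its own range of at least 1.6 log2 units. Ocln lies lower in the 5 resilient pools than in the 5 control pools. Flt1 has its lowest mean in the susceptible pools, but Flt1 and the remaining genes overlap between all groups.

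**Figure D2:**
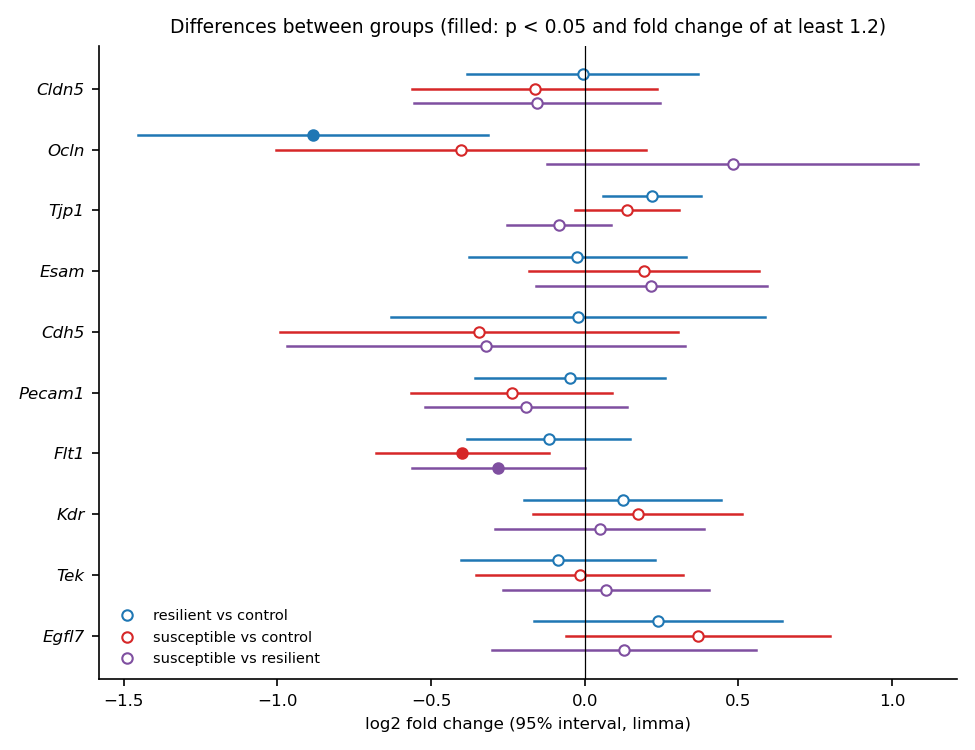
The log2 fold change of each gene in the 3 comparisons (x axis) with its 95% interval from limma. Filled points were called. Ocln in resilient pools and Flt1 in susceptible pools are the filled points, and most other intervals span 0.

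Among the tight junction genes, Ocln was lower in resilient mice. Ocln (ENSMUSG00000021638) lies on the minus strand at chr13:100496507-100552718 of GRCm38. It measured 2.97, 3.23, 2.74, 3.54 and 2.90 log2 CPM in control pools 1 to 5, and 2.66, 2.17, 2.74, 2.25 and 1.15 in resilient pools 1 to 5. It measured 2.25, 2.63, 2.81 and 3.01 in susceptible pools 1 to 4. The resilient pools all lay below the control pools, although the highest of them, at 6.66 CPM, almost touched the lowest control pool, at 6.68 CPM, and the susceptible pools ran across both groups.

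The mean of Ocln fell from 8.61 ± 1.95 CPM in controls to 4.89 ± 1.77 CPM in resilient pools (SD, n = 5 each), a log2 fold change of -0.88 (SE 0.27; limma p = 0.00434, adjusted p = 0.0864; two-sided exact permutation p = 0.00794, the smallest that 5 pools against 5 allow). It was the only one of the 10 genes whose groups did not overlap in this comparison, where 5.18% of all genes did not overlap. No gene of the 10 was free of overlap in susceptible pools against controls or against resilient pools, where 10.9% and 0.591% of all genes were. In susceptible pools Ocln was at 2.68 ± 0.32 log2 CPM (SD, n = 4), and the difference from controls of -0.40 (SE 0.29) did not pass (limma adjusted p = 0.437). The difference between susceptible and resilient pools was 0.48, with a 95% interval from -0.12 to 1.09, and did not pass either (limma adjusted p = 0.9999, exact permutation p = 0.190), although it was called without resilient pool 3. The lowest value rested on 7 reads, and without resilient pool 5 the difference from controls was -0.62 (limma adjusted p = 0.171, still called).

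Markers of epithelial cells that line the ventricles, which also make Ocln in the choroid plexus, were measured in the same pools. Of 14 choroid plexus genes, such as Ttr, which encodes the transthyretin that this epithelium secretes, 3 were called lower than in controls in resilient pools and 9 in susceptible pools, and 0 were called higher. These are shares of 21.4% and 64.3%, beside 9.04% and 9.28% of all genes called lower (17.7% and 18.9% in either direction). Their median log2 fold change was -0.78 and -1.95. A limma adjusted p under 0.05 was reached by 0 of the 14 genes in resilient and 1 in susceptible pools. Their summed level ranged from 190 to 469 CPM in control, 220 to 401 CPM in resilient and 223 to 333 CPM in susceptible pools, and these ranges overlapped. Much of that sum was Enpp2, with means of 151, 169 and 154 CPM in control, resilient and susceptible pools, which was not called. Ttr was at 67.1 ± 52.3, 33.9 ± 38.3 and 8.92 ± 15.9 CPM (SD) in the same order and was called in susceptible pools. There its limma adjusted p was 0.1055 and its exact permutation p was 0.0714. Of the defining markers, the folate receptor Folr1 had 1 to 18 reads in control, 0 to 12 in resilient and 0 to 1 in susceptible pools, and the claudin Cldn2 was at 0 in at least 1 pool of each group. Of 7 ependymal genes 4 (57.1%) were called lower in each stressed group, with a median of -0.56 and -0.95. In either group 0 of the 7 had a limma adjusted p under 0.05. Foxj1, the regulator of motile cilia, went from 3.35 ± 0.42 in controls to 2.78 ± 0.50 in resilient and 2.39 ± 0.33 log2 CPM in susceptible pools. Its limma adjusted p against controls was 0.218 and 0.0546.

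Ocln and these lists ran together in some pools and apart in others. In resilient pools 1 to 5 the mean of the 14 choroid plexus genes was 2.58, 1.04, 2.96, 0.35 and 0.30 log2 CPM, where Ocln was at 2.66, 2.17, 2.74, 2.25 and 1.15. Both were highest in resilient pools 1 and 3 and lowest in resilient pool 5, which also had the lowest ependymal mean of all pools, 0.43. In control pools 1 to 5 the choroid plexus mean was 3.39, 1.44, 2.78, 3.38 and 0.30, and control pool 4, the highest in Ocln, was among the highest there, while control pool 5 was low in the list and at 2.90 in Ocln. In susceptible pools 1 to 4 the choroid plexus mean was 0.09, -0.29, -0.42 and 1.89, the lowest of any group for the first 3 pools, and Ocln was at 2.25, 2.63, 2.81 and 3.01. The part of these epithelial cells in the Ocln difference was not tested.

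**Figure D3:**
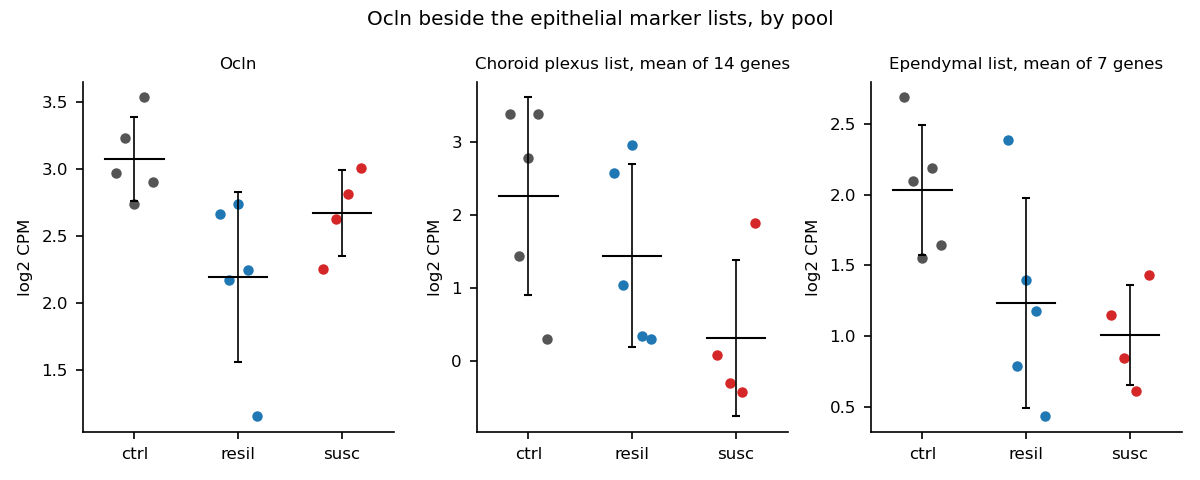
Ocln, the mean of 14 choroid plexus genes and the mean of 7 ependymal genes (log2 CPM, y axes) in each control, resilient and susceptible pool, with the group mean and 1 SD. Ocln is lowest in the resilient pools, whereas both lists are lowest on average in the susceptible pools, where 1 pool of 4 stands above the other 3 for the choroid plexus list.

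Tjp1 went the other way from Ocln by a small amount. Tjp1 (ENSMUSG00000030516) lies at chr7:65296165-65527781 on the minus strand. It measured 8.18, 8.17, 8.09, 8.07 and 8.12 log2 CPM in control pools 1 to 5, 8.35, 8.39, 8.15, 8.40 and 8.44 in resilient pools and 8.18, 8.27, 8.36 and 8.24 in susceptible pools. Of the 5 resilient pools 4 lay above every control pool, and resilient pool 3, the deepest, lay within the control range. Resilient pools exceeded controls by a log2 fold change of 0.22 (SE 0.08; limma p = 0.00975, adjusted p = 0.119; exact permutation p = 0.0238). This is 1.16-fold and stayed under the size needed for a call. Without resilient pool 3 it was 0.27 and Tjp1 was called. In susceptible pools the log2 fold change was 0.14 (SE 0.08; limma adjusted p = 0.340; exact permutation p = 0.0159). With 1174 to 3056 reads a pool, Tjp1 was the most precisely measured of the 10 genes, and its SD within groups of 0.08 was the lowest.

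Cldn5, the most abundant claudin of brain endothelium, did not pass in any comparison. Its levels ran from 2.93 to 3.38 log2 CPM in control, 2.74 to 3.56 in resilient and 2.68 to 3.33 in susceptible pools. Against controls its log2 fold change was -0.01 in resilient pools (95% interval -0.38 to 0.37) and -0.16 in susceptible pools (-0.56 to 0.24). With 27 to 126 reads a pool, a change of the size seen for Ocln lay outside both intervals, and smaller changes within the intervals could not be told from 0.

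The adhesion molecules Esam, Cdh5 and Pecam1 also stayed below the threshold in every comparison. Esam was at 3.67 ± 0.20 log2 CPM in control, 3.65 ± 0.34 in resilient (SD, n = 5 each) and 3.86 ± 0.19 in susceptible pools (n = 4). Cdh5 was at 3.10 ± 0.30, 3.08 ± 0.32 and 2.75 ± 0.85, where the wide spread in the last group came from susceptible pool 4 at 1.55, on 16 reads, beside 2.79, 3.27 and 3.41 in the other pools. Without that pool the log2 fold change of Cdh5 in susceptible pools went from -0.34 to 0.06. An antisense gene, Gm29682, overlaps Cdh5, and the strand setting of the counting was not given in the sources used here.

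Pecam1 measured 3.08 to 3.25 log2 CPM in control pools, with a median of 3.2, 2.96 to 3.34 in resilient pools and 2.79, 2.71, 3.15 and 3.13 in susceptible pools. Susceptible pools 1 and 2 lay below every other pool and pools 3 and 4 lay within the control range. The log2 fold change of susceptible pools against controls was -0.24 (95% interval -0.57 to 0.09; limma p = 0.145, adjusted p = 0.398; exact permutation p = 0.0317).

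Among the growth factor receptors, Flt1 was lower in susceptible mice. Flt1 (ENSMUSG00000029648) lies at chr5:147561604-147726011 on the minus strand. It measured 6.53, 6.43, 6.66, 6.26 and 6.13 log2 CPM in control pools 1 to 5, 6.47, 6.02, 6.27, 6.26 and 6.40 in resilient pools and 6.29, 5.81, 6.14 and 5.78 in susceptible pools 1 to 4. Susceptible pools 2 and 4 lay below all other pools, and susceptible pools 1 and 3 lay within the control range.

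The mean of Flt1 was 85.3 ± 12.5 CPM in control pools and 64.9 ± 11.4 CPM in susceptible pools, a log2 fold change of -0.40 (SE 0.13; limma p = 0.00813, adjusted p = 0.0969; exact permutation p = 0.0556). Against the resilient pools, at 78.4 ± 8.99 CPM, the log2 fold change was -0.28 (SE 0.13; limma p = 0.0498, adjusted p = 0.9999; exact permutation p = 0.119). This last call was lost in 5 of 10 other ways of processing and, of 14 fits that each omitted a pool, in 9. The resilient pools did not differ from controls past the threshold, at -0.12 (95% interval -0.38 to 0.15). Flt1 is made as a full receptor and as a shorter soluble form, and counts per gene do not separate them.

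The other VEGF receptor, Kdr, was not lower. It was at 4.35 ± 0.29 log2 CPM in control, 4.47 ± 0.20 in resilient and 4.52 ± 0.23 in susceptible pools, with a log2 fold change in susceptible pools of 0.17 (95% interval -0.17 to 0.51). The interval of Flt1 in the same comparison ran from -0.68 to -0.12. A difference between the genes was not tested. Tek was at 3.91 ± 0.17, 3.83 ± 0.22 and 3.90 ± 0.27 log2 CPM, and its log2 fold changes of -0.09 and -0.02 did not pass.

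Egfl7 (ENSMUSG00000026921) lies on the plus strand at chr2:26580014-26593120 and carries the hairpin of miR-126a, a miRNA of endothelial cells, within an intron of 8 of its 19 annotated transcripts. The hairpin is at chr2:26591357-26591429 of GRCm38.p6, plus strand, between exons 7 and 8 of the transcript Egfl7-201, and is shown because it joins the mRNA and the miRNA data of one locus. The sequences are those of RefSeq, with the 3p arm in capitals in the hairpin and the seed, bases 2 to 8, in capitals in the mature miRNA.
microRNA 126a hairpin: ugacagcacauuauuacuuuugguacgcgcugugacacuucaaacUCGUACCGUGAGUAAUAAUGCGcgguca
mmu-miR-126a-3p: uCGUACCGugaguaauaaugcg

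Egfl7 measured 4.08, 4.34, 4.63, 4.64 and 4.52 log2 CPM in control pools, 5.18, 4.95, 4.62, 4.10 and 4.56 in resilient pools and 4.75, 5.32, 4.49 and 4.69 in susceptible pools. Of the 4 susceptible pools 3 lay above every control pool, and the resilient pools were spread from the bottom of the control range to well above it. Egfl7 differed from controls by 0.24 (SE 0.19) on the log2 scale in resilient and by 0.37 (SE 0.20) in susceptible pools, and neither passed (limma p = 0.229 and 0.0881, exact permutation p = 0.286 and 0.0952). In susceptible pools Egfl7 was called where only those 2 groups were fitted, where pools were scaled to their recovered reads, and without susceptible pool 3 (0.48). In resilient pools it was called without resilient pool 4 (0.39). Reads of Egfl7 could also come from the read-through gene Gm20532 on the same strand.

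The arms of miR-126a were measured in separate AGO2 miRNA libraries, with 5 control, 5 resilient and 3 susceptible pools and 788 miRNAs. miR-126a-5p measured 11.41, 11.58, 11.88, 11.65 and 11.57 log2 CPM in control pools, 12.01, 12.16, 11.68, 12.04 and 12.27 in resilient pools and 11.49, 11.53 and 12.02 in susceptible pools. Of the 5 resilient pools 4 lay above every control pool, and susceptible pools 1 and 2 lay within the control range.

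miR-126a-5p was higher in resilient pools than in controls by a log2 fold change of 0.41 (SE 0.12; limma p = 0.0037, adjusted p = 0.218; exact permutation p = 0.0159). It was called in this comparison, as were 9.52% of the miRNAs. In susceptible pools the log2 fold change from controls was 0.06 (95% interval -0.24 to 0.36), in a comparison where 4.70% of the miRNAs were called. Susceptible pools were lower than resilient pools by -0.35 (SE 0.14; limma p = 0.0245, adjusted p = 0.978; exact permutation p = 0.107), a call shared by 3.93% of the miRNAs and lost without a mean-variance trend and under a block on replicate numbers. The same call was lost in 3 of 13 fits that each omitted a pool (resilient pool 5, susceptible pool 1 or susceptible pool 2).

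The other arm, miR-126a-3p, rose from 1027 ± 127 CPM in control to 1282 ± 195 CPM in resilient pools (SD, n = 5 each), a log2 fold change of 0.32 (SE 0.12; limma adjusted p = 0.303; exact permutation p = 0.0397). This call was lost without control pool 2 (0.27) and without resilient pool 2 (0.25). Between the stressed groups it was called only without susceptible pool 4 (-0.31). The letters CGGTACG, which pair with the seed of miR-126a-3p, were searched on the sense strand of the longest annotated 3′ UTR of each gene. They were found in 41 of 13896 genes (0.295%) and in 0 of the 10 genes here, which says only that these letters are not in those windows. The mRNA and miRNA pools of the same number are not stated to be the same pool, so Egfl7 and miR-126a were not compared pool by pool.

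**Figure D4:**
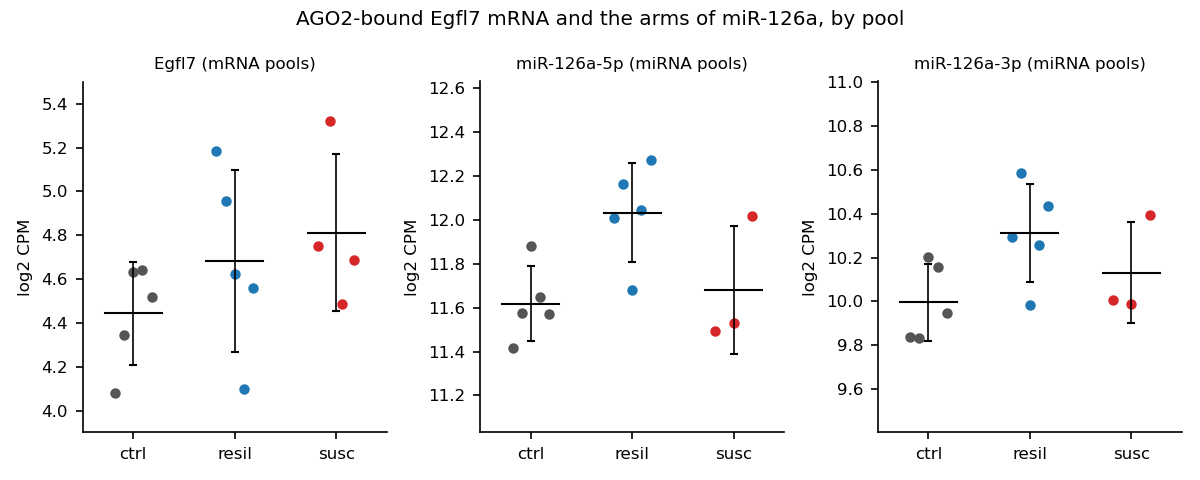
Level (log2 CPM, y axes, each spanning 1.6 units) of AGO2-bound Egfl7 mRNA and of the 5p and 3p arms of miR-126a in control, resilient and susceptible pools, with the group mean and 1 SD. Both arms have 4 of 5 resilient pools above all control pools, whereas 3 of 5 resilient pools lie within the control range for Egfl7.

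The 10 genes did not vary together among pools of one group. After group means were removed, the 45 pairs of genes had a median Pearson correlation of -0.12 over the 14 pools, from -0.76 for Cldn5 with Tjp1 to 0.80 for Cdh5 with Kdr, and 18 pairs were positive. All pairs share the libraries and their depth. The SD within groups was 0.15 for Pecam1, below the 0.21 that counting alone gives at its median depth, and 0.25 for Cldn5 against 0.22 from counting. For these genes the spread between pools was thus little more than counting error. For Tjp1 and Flt1 it was 2.32 and 3.05 times the counting error.

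The genes with the pattern most like the mean standardised level of the 10, among 12629 genes of at least 2 log2 CPM, were Arhgap35 with a Pearson correlation of 0.92, Prdm2 with 0.91, Ctnnd2 with 0.91, Golph3l with 0.91 and Jun with 0.90, over 14 pools with group means removed. None of these is on the vascular lists below. They head a ranking of 12629 genes over 14 pools. The 10 genes did not vary together, so their mean is not a pattern that the 10 share.

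Other genes of endothelium and the vessel wall were taken from prepared lists, and from each list the 3 genes with the smallest p against controls are named. Picked by p, these genes are more likely than others to be free of overlap with controls. Of all genes 5.18% were free of overlap in resilient and 10.9% in susceptible pools. Of 31 measured genes of endothelial identity, 2 were called higher and 4 lower in resilient pools, and 4 higher and 5 lower in susceptible pools. These are 19.4% and 29.0% of the list, beside 17.7% and 18.9% of all genes. Their median log2 fold change was -0.05 and -0.11. Erg, a transcription factor of endothelial cells that maintains Cdh5 expression, was the most strongly lowered. It measured 4.20, 3.63, 3.49, 3.02 and 3.40 log2 CPM in control pools, 2.26, 2.69, 2.21, 2.87 and 2.10 in resilient pools and 2.25, 1.55, 2.47 and 2.57 in susceptible pools. All stressed pools lay below all control pools.

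The log2 fold change of Erg was -1.12 (SE 0.25) in resilient and -1.34 (SE 0.26) in susceptible pools (limma adjusted p = 0.031 and 0.0132; exact permutation p = 0.00794 in both), and -0.22 (SE 0.26) between the stressed groups. The 2 comparisons share the control pools. Nos3, the endothelial nitric oxide synthase, was higher by 0.70 (SE 0.22) and 0.59 (SE 0.23), and the adhesion molecule Mcam by 0.48 (SE 0.19) and 0.47 (SE 0.20), all called and none with a limma adjusted p under 0.05. Chosen after their values were seen, Emcn, a sialomucin of veins and capillaries, was lower by -0.58 (SE 0.27) and -0.73 (SE 0.29), while Tie1, the orphan partner of Tek, was at 0.49 (SE 0.26) and 0.67 (SE 0.27) and called only in susceptible pools.

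Of 21 other junction genes, 1 was called in resilient pools (higher) and 2 in susceptible pools (1 higher and 1 lower). That is 4.76% and 9.52% of the list, below the 17.7% and 18.9% of all genes. Cgn, which encodes cingulin, a partner of ZO-1 at the tight junction, went from 4.70 ± 0.25 log2 CPM in controls to 5.07 ± 0.18 in resilient and 5.31 ± 0.37 in susceptible pools. These log2 differences from controls were 0.37 (SE 0.16; limma adjusted p = 0.188) and 0.61 (SE 0.17; limma adjusted p = 0.0482). N-cadherin (Cdh2), which also joins endothelium to pericytes, was at -0.20 (SE 0.21) and fell by 0.74 (SE 0.23) in susceptible pools. Afdn, the scaffold afadin, was at 0.22 (SE 0.08) and 0.16 (SE 0.09) and was not called.

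Of 20 genes listed as transporters and receptors of brain endothelium, 2 were called higher in resilient pools, and 3 higher and 1 lower in susceptible pools. That is 10% and 20% of the list, beside 17.7% and 18.9% of all genes, with medians of 0.09 and 0.06. The iron exporter Slc40a1 measured 5.12 ± 0.17 log2 CPM in control, 5.45 ± 0.18 in resilient and 5.65 ± 0.14 in susceptible pools, and rose by 0.33 (SE 0.11; limma adjusted p = 0.117) and 0.53 (SE 0.12; limma adjusted p = 0.0241). The organic anion transporter Slc22a8 rose in resilient pools by 0.64 (SE 0.17; limma adjusted p = 0.0586; exact permutation p = 0.00794), with no overlap between groups, and was at 0.26 (SE 0.18) in susceptible pools. The apolipoprotein E receptor Lrp8 was at 0.23 (SE 0.09) and 0.27 (SE 0.10), called in susceptible pools. Because the pools mix cell types, a call on this list is not one of endothelium alone. Which cells gave the reads of Lrp8 and the other listed genes was not tested.

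Of 18 genes of the VEGF, angiopoietin, TGFβ and sphingosine phosphate pathways, 3 were called lower in resilient and 2 in susceptible pools and 0 higher. The shares were 16.7% and 11.1%, beside 9.04% and 9.28% of all genes called lower (17.7% and 18.9% in either direction). Bmpr2, a receptor of bone morphogenetic proteins, was lower by -0.28 (SE 0.08) and -0.30 (SE 0.09). Its limma adjusted p was 0.0763 and 0.055, and neither stressed group overlapped with the controls. The apelin gene Apln was lower by -0.30 (SE 0.12) and -0.29 (SE 0.13), and the sphingosine receptor S1pr1 was at -0.31 (SE 0.11) and -0.25 (SE 0.11), called in resilient pools. Of 19 genes of Wnt signalling at the barrier, 2 were called lower in resilient pools and 1 in susceptible pools. That is 10.5% and 5.26% of the list, beside 9.04% and 9.28% of all genes called lower (17.7% and 18.9% in either direction). In resilient pools they were Tspan12 at -0.44 (SE 0.14) and its ligand partner Ndp at -0.59 (SE 0.27). In susceptible pools it was the receptor Fzd4 at -0.45 (SE 0.18). The call of Ndp was lost in 8 of 14 fits that each omitted a pool, at -0.72 to -0.37.

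Of 17 mural cell genes, 2 were called lower in resilient and 3 in susceptible pools and 0 higher, with medians of -0.14 and -0.26. These are 11.8% and 17.6% of the list, beside 9.04% and 9.28% of all genes called lower (17.7% and 18.9% in either direction). The pericyte marker Rgs5 went from 73.0 ± 5.57 CPM in control to 53.7 ± 3.39 CPM in resilient and 47.7 ± 9.34 CPM in susceptible pools, with log2 fold changes of -0.44 (SE 0.11; limma adjusted p = 0.0513) and -0.63 (SE 0.12; limma adjusted p = 0.0125). No stressed pool reached the lowest control pool. The contractile genes Tagln and Cald1 were called lower in susceptible pools only, at -0.82 (SE 0.33) and -0.35 (SE 0.13).

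Of 15 basement membrane genes, 3 were called higher and 1 lower in each stressed group, with medians of 0.14 and 0.19. That is 26.7% of the list in each, beside 17.7% and 18.9% of all genes. Lama5, the laminin chain of mature vessels, measured 4.60, 4.76, 4.98, 5.14 and 4.43 log2 CPM in control pools, 5.83, 6.15, 5.23, 5.37 and 5.78 in resilient pools and 5.04, 6.13, 5.74 and 5.92 in susceptible pools. The resilient pools all lay above the control pools, and of the susceptible pools only pool 1 lay within their range. Lama5 differed from controls by 0.89 (SE 0.20; limma adjusted p = 0.0343) and 0.93 (SE 0.22; limma adjusted p = 0.0271). Lamb2, another laminin chain, was higher by 0.41 (SE 0.19) and 0.60 (SE 0.20), and its call in resilient pools was lost in 7 of 14 fits that each omitted a pool, at 0.31 to 0.49. Col4a1, a collagen IV chain, was at 0.24 (SE 0.10) and 0.23 (SE 0.11) and was not called.

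Of 9 measured genes of perivascular fibroblasts, 1 (11.1%) was called lower in each stressed group, beside 9.04% and 9.28% of all genes. It was Dcn in resilient pools at -1.29 (SE 0.60) and Igf2 in susceptible pools at -0.58 (SE 0.24). Igf2 was at 8.35, 7.83, 7.79 and 8.98 log2 CPM in susceptible pools 1 to 4. Susceptible pool 4 also had the highest choroid plexus mean of its group, 1.89 log2 CPM, and a link was not tested. The third gene named by rule, Ptgds, was at -0.17 (SE 0.12) and -0.22 (SE 0.13). Dcn was near the detection limit, with 0 to 31 reads a pool, and lost its call in 10 of 14 fits that each omitted a pool, at -0.77 without resilient pool 5.

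**Figure D5:**
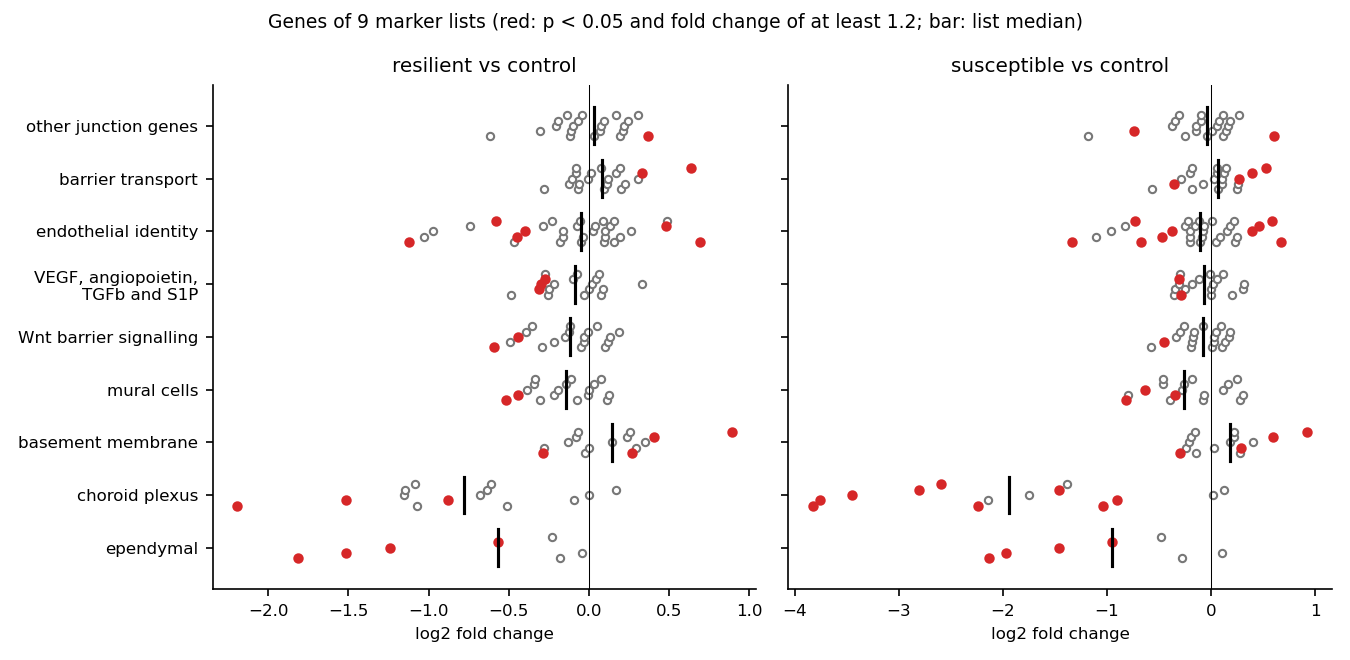
Difference from controls (log2 fold change, x axis) of each measured gene of 9 lists, with a panel for resilient and a panel for susceptible pools. Each point is 1 gene, red points were called and the bar is the median of the list. The panels have different x ranges. The medians of the vascular lists lie within 0.26 of 0, and the medians of the choroid plexus and ependymal lists lie to the left of 0.

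Markers of other cells were measured beside the vascular genes. Of 13 blood cell markers 7 were in the table, and their summed level was 22.8 to 29.0 CPM in control, 18.8 to 28 CPM in resilient and 22.0 to 29.9 CPM in susceptible pools. The alpha globin genes Hba-a1 and Hba-a2, near-identical copies whose reads may be split between them, were called lower in resilient pools, at -0.82 (SE 0.32) and -1.07 (SE 0.35), on 2 to 22 reads a pool. They make 28.6% of the 7 blood cell markers, beside 17.7% of all genes. In susceptible pools 1 of these 7 markers (14.3%) was called, beside 18.9% of all genes. It was the platelet integrin Itga2b, higher by 1.11 (SE 0.43), which is named after its values were seen. In the mRNA of blood cells of 5 B6 control mice, which was scaled separately, 9 of the 10 genes were listed. Pecam1, also made by platelets and leukocytes, was at 7.33 ± 0.34 log2 CPM and Esam, also made by platelets, at 5.23 ± 0.75, and the other 7 genes ranged from -1.14 for Cdh5 to 2.89 for Tjp1. In susceptible BNST pools 5 of 11 neuronal genes were called lower and 0 higher, with a median of -0.24, 4 of 9 oligodendrocyte genes were lower and 1 higher, with a median of -0.15, and of 10 astrocyte genes 4 were lower and 2 higher, with a median of -0.19. Of 12 microglial genes 2 were lower and 1 higher. These are 45.5%, 55.6%, 60% and 25% of the lists, beside 18.9% of all genes. In the same order 1, 3, 2 and 0 genes had a limma adjusted p under 0.05. In resilient pools the calls were 0 higher and 1 lower for neurons, 1 and 3 for oligodendrocytes, and 1 and 1 for both astrocytes and microglia. That is 9.09% of the neuronal, 44.4% of the oligodendrocyte, 20% of the astrocyte and 16.7% of the microglial list, beside 17.7% of all genes. Here 0, 1, 0 and 0 genes of these lists had a limma adjusted p under 0.05. The part of these cells in the differences of the vascular genes was not tested.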

How the data were processed

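AGO2-bound mRNA (14 pools) and miRNA (13 pools) of the B6 BNST and blood mRNA of 5 B6 controls were analysed. The authors aligned mRNA reads to GRCm38 with STAR, counted them on exons with HTSeq, kept genes of at least 1 CPM in at least 3 AGO2 pools or 6 blood samples and deposited log2 CPM values made with voom. miRNA reads were counted on miRBase. The authors' cohort correction of the mRNA and surrogate variable correction of the miRNA are not part of the deposited values, and the cohort was not used here. All values returned to whole reads (tolerance 0.0001), which gave the depth. The deposited values of each data set were fitted with limma 3.58.1 (R 4.3.3), with 3 group means and empirical Bayes with a mean-variance trend, with Benjamini-Hochberg adjustment of p over all features. Tests were two-sided, and intervals are 95%. Permutation tests used every split of the pools; 3 pools against 5 can give no p below 0.0179. The procedure was tested on simulated data. Symbols and exon lengths came from GENCODE M21 (16535 of 16587 genes matched). Named by rule were the 10 genes, 3 of each vascular list with the smallest p, the 5 most alike and both miR-126a arms. Any other gene with values given here was chosen after its values were seen. The genes and lists were chosen with earlier results of these data known. Alternatives were normalization, weights, pseudocount, filter, fitted samples, replicate block and each pool left out. Total BNST RNA, blood miRNA and proteins were not analysed here.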

Additional observations from a re-analysis of the deposited data

Results flagged for a closer look

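Of 106 groups of 4 or 5 pools, 2 had a pool that stood apart by Dixon's criterion, which chance gives in about 1 of 20 groups, and neither was of the 10 genes. Lrp8 in resilient pool 3, the deepest pool, was at 7.03 log2 CPM, against 7.26 to 7.34 in the other resilient pools. Ptgds in susceptible pool 4 was at 5.97 log2 CPM, against 5.49 to 5.56 in the other susceptible pools. The choroid plexus mean of susceptible pool 4, 1.89 log2 CPM, was also above that of the other susceptible pools.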

How the results depend on the processing

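For the 10 genes in 3 comparisons, 282 of 300 values under other settings kept their direction and side of the threshold, as did 380 of 420 with 1 pool left out. Ocln in resilient and Flt1 in susceptible pools against controls stayed called in all of these, at -0.89 to -0.75 and -0.42 to -0.33 under other settings and -1.02 to -0.62 and -0.49 to -0.32 with a pool left out. Pools of one replicate number did not deviate together (correlations from -0.277 to 0.298 in the mRNA). With the replicate block 2737, 2937 and 291 genes were called, against 2934, 3140 and 355, and 67 and 248 against 324 and 666 had an adjusted p under 0.05 in resilient and susceptible pools against controls. Those counts were 13 and 209 without a trend and 1113 and 1428 with sample weights, 148 in resilient pools with voom weights, 560 there with a mean of at least 2 log2 CPM and 1090 in susceptible pools where only the groups compared were fitted. With a pool left out they ran from 23 (without control pool 1) to 1949 (without resilient pool 3) in resilient and from 36 (without susceptible pool 2) to 1112 (without resilient pool 3) in susceptible pools. The cause was not tested.

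Values near 0 changed sign. Cldn5 in resilient vs control pools became 0.0247 with quantile normalization, 0.0703 with voom weights and 0.00 with median-ratio scaling, Esam in the same comparison 0.0222 with sample weights and 0.0327 with quantile normalization, and Cdh5 0.02 with quantile normalization and 0.0284 with voom weights. Tek in susceptible vs control pools became 0.0051 with quantile normalization, 0.0555 with scaling to recovered reads and 0.0026 with the replicate block, and miR-126a-5p became -0.03 with sample weights. Tjp1 became 0.0347 between the stressed groups with quantile normalization. In susceptible pools against controls 2 of the 10 genes were called with scaling to recovered reads and where only the groups compared were fitted (Egfl7 joined Flt1). Between the stressed groups 0 were called without a trend, with sample weights, with scaling to recovered reads, with a mean of at least 2 log2 CPM and where only the groups compared were fitted. The mean filter left 219 genes called there, and miR-126a-5p lost its call without a trend (-0.3529) and with the replicate block (-0.3361). Scaling to recovered reads gave 2350 higher and 942 lower genes in susceptible pools against controls (1600 and 1540 as reported) and 391 and 116 between the stressed groups (158 and 197).

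With 1 pool left out, called genes of the 10 ranged from 1 to 2 in resilient pools against controls (2 without resilient pool 3 or 4), 1 to 2 in susceptible pools against controls (2 without susceptible pool 3) and 0 to 1 between the stressed groups, where over all genes 288 to 947 were called (947 without resilient pool 3). Against controls in resilient pools the ranges were -0.1148 to 0.0895 for Cldn5, -0.1695 to 0.0491 for Esam, -0.1245 to 0.079 for Cdh5 and 0.2467 to 0.3975 for miR-126a-3p. In susceptible pools they were -0.5625 to 0.0593 for Cdh5, -0.0937 to 0.0714 for Tek, -0.2867 to 0.114 for Dcn and -0.1058 to 0.1554 for miR-126a-5p. Between the stressed groups they were -0.5407 to 0.0811 for Cdh5, -0.0149 to 0.1635 for Kdr, -0.0071 to 0.158 for Tek, -0.0408 to 0.2533 for Egfl7, -0.5206 to -0.2594 for miR-126a-5p and -0.3119 to -0.109 for miR-126a-3p.

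Of the other vascular genes named, leaving out 1 pool also ended the calls of Cgn, Slc40a1, Mcam, Bmpr2 and Apln in resilient and of Lrp8, Nos3, Mcam, Apln, Fzd4, Tagln and Igf2 in susceptible pools in at least 1 fit. The calls of Erg, Rgs5 and Lama5 held in all fits.

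Counts of 7 to 139 reads a pool for Ocln, Cldn5, Cdh5, Pecam1 and Esam limit what these libraries can show.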
